A study of Mus musculus with 4 samples.

Results

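The genes described here are 5 paired-like homeobox genes of limb identity and outgrowth, Pitx1, Pitx3, Prrx1, Prrx2 and Shox2, chosen by symbol from the 25239 symbols of the deposited count table. All 5 were in the table and all 5 passed the filter on low counts. Paired-like homeobox genes encode transcription factors that bind DNA through a homeodomain and recognise short AT-rich sites. Prrx1 and Prrx2 are expressed throughout early limb mesenchyme and act redundantly in skeletal patterning. Shox2 is required for growth of the proximal skeleton of the limb, Pitx1 specifies hindlimb rather than forelimb character, and Pitx3 is best known from the lens, midbrain dopamine neurons and differentiating muscle.

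RNA was sequenced from 2 populations of mouse hindlimb bud cells at embryonic day 11.5, with 2 libraries of each. Both populations came from FVB embryos whose genotype is labelled wild-type and which carried the same reporter at the H11 safe-harbour locus. In that reporter a human ZRS enhancer with the 404G>A change, joined to the hsp68 promoter, drives mCherry. The ZRS is the limb enhancer of Shh, which lies within an intron of another gene, Lmbr1. The anterior population was dissected from the anterior bud and sorted as mCherry+, whereas the central population was dissected from the centre of the bud and sorted as mCherry-. Position in the bud and reporter state therefore change together and cannot be told apart. The number of embryos per library is not given, so p-values measure the spread between these libraries, which may be technical. The libraries held 30080925 to 33257383 counts. Tbx4, the hindlimb T-box gene, measured 231 ± 9.2 CPM in anterior and 254 ± 19.4 CPM in central cells (SD, n = 2), whereas the forelimb gene Tbx5 measured 0.034 ± 0.048 and 2.01 ± 0.92 CPM. Of the 3 forelimb list genes, Tbx5 and 1 other were called lower in anterior cells, against 12.3% of all tested genes. Tbx5 had 0 and 2 anterior counts and passed the filter only through the central libraries, so it could not come out higher. The list was also chosen with earlier results of these data known, so its count is a description. CPM are counts scaled to a common library total of 1000000 after TMM adjustment for composition.

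Among the 5 genes, Prrx2 was higher in anterior cells, Shox2 and Pitx3 were lower, and Prrx1 and Pitx1 did not differ beyond the spread between replicates. Differences were tested across 14610 genes with the quasi-likelihood F test of edgeR, and a gene was called when its Benjamini-Hochberg adjusted p was under 0.05. Thus 3 of 5 genes were called, 1 higher and 2 lower. Pitx3, with 4 and 6 anterior counts, passed the filter only through the central libraries, so it could not come out higher. Over all tested genes, 22.9% were called, 10.7% higher and 12.3% lower, so with 5 genes the count itself says little and the size of each difference is what follows. The groups did not overlap for the same 3 genes, against 63.5% of all tested genes.

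**Figure D1:**
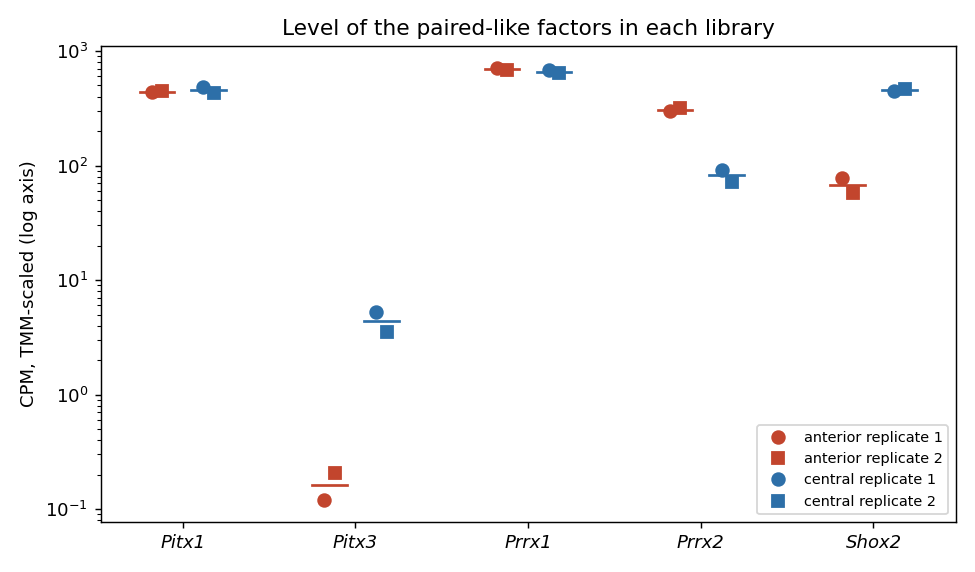
CPM (TMM-scaled, log axis) of each gene in every library, with circles for replicate 1, squares for replicate 2 and a line at each group mean. Prrx2 lies higher in both anterior libraries, Shox2 and Pitx3 lie higher in both central libraries, and the points of Prrx1 and Pitx1 overlap.

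The homeobox, the coding stretch for the homeodomain, is shown for each gene because it is the part the 5 genes share and the part in which reads of close paralogs could be confused. Each stretch is 180 bases of coding sequence from the GENCODE M21 transcripts, written 5′ to 3′ on the coding strand. Capitals mark codon 50 of the homeobox, in the recognition helix, which is the place known to separate the DNA preference of the Pitx type from that of the other paired-like factors.
Pitx1: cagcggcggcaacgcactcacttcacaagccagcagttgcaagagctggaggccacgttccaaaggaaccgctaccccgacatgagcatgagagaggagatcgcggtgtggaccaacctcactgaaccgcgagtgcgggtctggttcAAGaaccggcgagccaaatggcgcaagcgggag
Pitx3: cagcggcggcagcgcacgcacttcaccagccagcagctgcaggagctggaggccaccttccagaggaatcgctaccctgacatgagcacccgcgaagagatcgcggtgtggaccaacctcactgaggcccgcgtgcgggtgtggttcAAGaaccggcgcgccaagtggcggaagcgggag
Prrx1: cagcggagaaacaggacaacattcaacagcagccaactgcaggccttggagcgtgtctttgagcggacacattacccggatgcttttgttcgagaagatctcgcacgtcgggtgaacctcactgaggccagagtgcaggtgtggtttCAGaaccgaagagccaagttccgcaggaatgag
Prrx2: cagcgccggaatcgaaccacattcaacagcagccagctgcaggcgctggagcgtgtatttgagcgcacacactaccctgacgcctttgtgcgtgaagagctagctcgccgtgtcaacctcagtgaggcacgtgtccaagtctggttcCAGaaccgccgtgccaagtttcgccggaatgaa
Shox2: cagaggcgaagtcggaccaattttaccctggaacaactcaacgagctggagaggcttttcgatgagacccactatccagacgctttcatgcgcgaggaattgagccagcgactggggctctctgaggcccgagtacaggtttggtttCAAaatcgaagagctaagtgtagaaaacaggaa

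The marked codon was AAG in Pitx1 and Pitx3, CAG in Prrx1 and Prrx2, and CAA in Shox2. Over the 180 bases, Pitx1 and Pitx3 were identical at 158 positions (87.8%) and Prrx1 and Prrx2 at 142 (78.9%). Shox2 was closest to Prrx1, at 61.7%. The longest run without a difference was 29 bases for the Pitx pair and 17 bases for the Prrx pair. None of the 50-base words in the annotated transcripts of these genes occurred in a transcript of another of the 5. The different results for Prrx1 and Prrx2, and for Pitx1 and Pitx3, were thus measured on sequence that reads of that length can tell apart, although the read length is not given in the sources used here.

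Prrx1, a homeobox gene used as the standard marker of limb bud mesenchyme, lies at chr1:163245119-163313710 on the minus strand (GRCm38, GENCODE M21). It measured 717 and 676 CPM in anterior libraries, against 681 and 641 CPM in central libraries. The groups overlapped, and central replicate 1 was above anterior replicate 2. The log2 fold change was 0.07 ± 0.07 (SE, adjusted p = 0.473 by edgeR), with a 95% interval of -0.08 to 0.22. That interval corresponds to an anterior level between 0.949 and 1.17 times the central one.

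Prrx2, its paralog, lies at chr2:30834972-30881251 on the plus strand. It measured 296 and 319 CPM in anterior libraries, against 91.8 and 72.3 CPM in central libraries. Both anterior libraries stood far above both central ones, with a mean 3.75 times as high. The log2 fold change was 1.91 ± 0.11 (SE, adjusted p = 8.23e-06 by edgeR), with a 95% interval of 1.66 to 2.15.

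The balance within the Prrx pair does not depend on the scaling of the libraries. Per count of Prrx1 there were 0.414 and 0.472 counts of Prrx2 in anterior libraries, against 0.135 and 0.113 in central libraries. Prrx2 thus made up 29.3% and 32.1% of the counts of the pair in anterior libraries, and 11.9% and 10.1% in central libraries. The groups were fully separate, and the exact two-sided permutation test gave p = 0.333, the smallest that 2 against 2 libraries allow. Summed, the pair measured 1004 ± 12.9 CPM in anterior and 743 ± 42.0 CPM in central cells.

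Shox2, which drives chondrocyte growth in the proximal limb skeleton, lies at chr3:66971727-66981771 on the minus strand. It measured 77.9 and 57.8 CPM in anterior libraries, against 445 and 463 CPM in central libraries. The central libraries were close to each other and 6.69 times as high in the mean, whereas the anterior libraries differed from each other by more in proportion. The log2 fold change was -2.74 ± 0.12 (SE, adjusted p = 3.34e-06 by edgeR), with a 95% interval of -3.03 to -2.46. Of all tested genes, 96.5% had an absolute log2 fold change as small or smaller.

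Shox2 and the Prrx pair can be set against each other in the same library. There were 0.109 and 0.0855 counts of Shox2 per count of Prrx1 in the anterior libraries, against 0.654 and 0.722 in the central ones. Against Prrx2, which moved the other way, the ratio was 0.263 and 0.181 in anterior and 4.85 and 6.41 in central libraries. For both ratios the groups were separate, and the exact two-sided permutation p was again 0.333. The ratio of Pitx1 to Prrx1, neither of them called, was separate too, with the same permutation p. It was 0.606 and 0.666 in anterior libraries, against 0.709 and 0.670 in central libraries. Separation and this p therefore do not set the Prrx2 and Shox2 ratios apart.

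**Figure D2:**
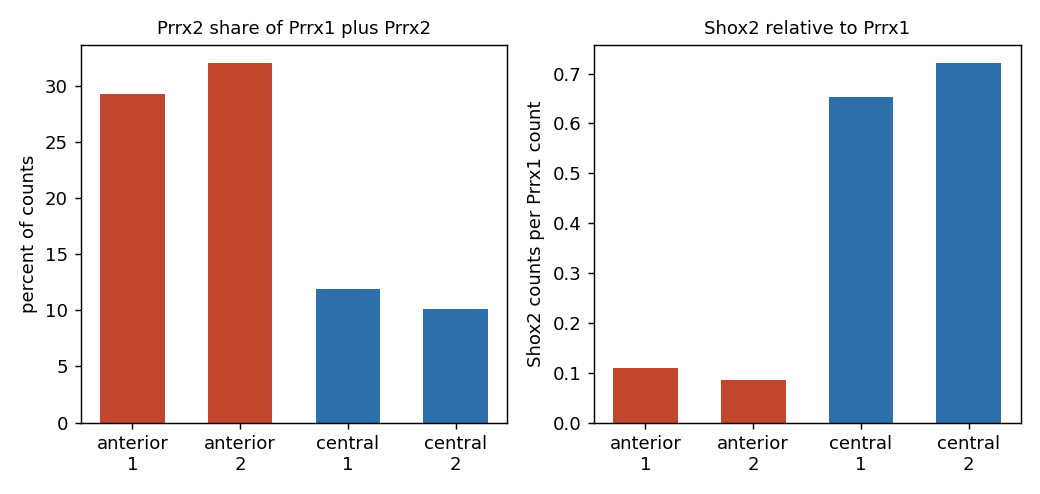
Left, Prrx2 as a percent of the counts of Prrx1 plus Prrx2 in each library, and right, Shox2 counts per Prrx1 count in each library (bars start at 0). The Prrx2 share was 29.3% and 32.1% in anterior against 11.9% and 10.1% in central libraries, and the Shox2 ratio was below 0.2 in both anterior libraries.

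Pitx1, the hindlimb identity factor that acts upstream of Tbx4, lies at chr13:55825051-55836192 on the minus strand. It measured 434 and 450 CPM in anterior libraries, against 483 and 430 CPM in central libraries. The anterior values lay between the central ones. The log2 fold change was -0.05 ± 0.07 (SE, adjusted p = 0.707 by edgeR), with a 95% interval of -0.21 to 0.12, or 0.864-fold to 1.09-fold.

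Pitx3 lies at chr19:46135685-46148326 on the minus strand. Its counts were 4 and 6 in anterior libraries (0.12 and 0.20 CPM), against 161 and 113 in central libraries (5.23 and 3.49 CPM). The gene was near the detection limit in both anterior libraries, where 3 counts correspond to 0.090 and 0.102 CPM, and low but clearly counted in both central ones. The log2 fold change was -4.73 ± 0.49 (SE, adjusted p = 0.000242 by edgeR). The counts summed over libraries gave a central to anterior ratio of 27.2, with an exact conditional 95% interval of 14.6 to 57.3. On halved counts, which allow for both mates of a pair having been counted, the interval was 11.4 to 85.1. Both intervals cover counting error only.

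Markers of myogenic cells were also low in anterior cells. Of 7 markers 7 were called lower, against 12.3% of all tested genes. Their summed level was 2.35 to 4.17 CPM in anterior against 142 to 143 CPM in central libraries. Myog and Pax7 were at 0 in both anterior libraries. Genes with almost no anterior counts, Pitx3 among them, passed the filter only through the central libraries. They could come out lower or not called, but not higher, so the list count is a description. The median log2 fold change of the myogenic list was -7.30, or -6.38 with the 3 genes at or below 3 counts in the anterior libraries set to their bound. The part of muscle precursors in the difference of Pitx3 was not tested. In bulk libraries fewer cells of a type and less RNA per cell cannot be told apart.

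Other cell types also differed between the populations. Ectoderm markers, lower in anterior cells for 8 of 9 genes, summed to 9.95 and 10.2 CPM in anterior libraries, against 55.2 and 180 CPM in central libraries. Endothelial markers, lower for 5 of 7, summed to 5.13 to 9.10 CPM against 25.2 to 36.6 CPM. Blood markers were higher for 8 of 8 and summed to 3294 and 8400 CPM in anterior libraries against 5.97 and 9.48 CPM in central ones. Neural crest and Schwann markers were lower for 2 of 5 tested genes, and of 4 myeloid markers 1 was higher. The shares over all tested genes were 12.3% lower and 10.7% higher. Here too, markers with almost no counts in 1 population passed the filter only through the other. With all of the blood, muscle, endothelial, ectoderm, neural crest and myeloid markers removed before scaling, the calls of the 5 genes were the same. That removal acts only through the scaling and leaves in the RNA that such cells add to the 5 genes. The part of these cell types in the differences was not tested. Pdgfra, Twist1 and the other limb mesenchyme markers summed to 1317 to 1453 CPM in anterior and 1609 to 1663 CPM in central libraries, with 2 of 6 higher and 2 of 6 lower in anterior cells.

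Levels of different genes were compared per length, as CPM per kilobase of merged exons. In anterior cells the order was Pitx1 at 167 ± 4.2, Prrx2 at 157 ± 8.1, Prrx1 at 62.9 ± 2.6, Shox2 at 20.5 ± 4.3 and Pitx3 at 0.11 ± 0.04 CPM per kilobase (SD, n = 2). Pitx1 and Prrx2 are close in that order, at 164 and 170 against 151 and 163 in single libraries. Pitx1 was thus above Prrx2 in both anterior libraries, by little in the nearest values, and the difference was not tested. In central cells the order was Pitx1 at 172 ± 14.1, Shox2 at 137 ± 3.8, Prrx1 at 59.8 ± 2.5, Prrx2 at 41.8 ± 7.1 and Pitx3 at 2.86 ± 0.80. By this measure Shox2 and Prrx2 exchanged places around Prrx1, an order that depends on the length taken for Prrx1. Pitx1 was at or above 98.7% of 14324 tested genes with a known length in anterior cells, and at or above 98.8% in central cells. The merged exons of Prrx1 span 11066 bases, including alternative ends, so its level per length is understated if short forms predominate.

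The neighbouring genes are set beside the factors. Of 10 protein-coding genes that flank or overlap the 5 factors, 7 were tested, 6 were not called and 1 was lower. As 22.9% of all tested genes were called, that count says little about the neighbours as a set. The 2 neighbours of Prrx2 differed far less than Prrx2 itself: Asb6 had a log2 fold change of 0.26 (adjusted p = 0.0638 by edgeR), and Ptges one of 0.24 (0.247). Gbf1, 4.18 kb from Pitx3, measured 105 ± 4.4 CPM in anterior and 121 ± 7.3 CPM in central cells (SD, n = 2 each, log2 fold change -0.20, adjusted p = 0.0936 by edgeR). Macroh2a1 beside Pitx1 and Gorab beside Prrx1 had log2 fold changes of 0.01 and 0.12 and were not called (adjusted p-values 0.960 and 0.409). Of the 50-base words of Pitx1, 6.79% occur in Gm28760 or Gm47071, noncoding genes that overlap it and are not in the count table.

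Rsrc1 bears most directly on Shox2, because the annotated starts of these genes face opposite ways and overlap by 382 bases. Rsrc1, a splicing factor gene, was counted 2373 and 2338 times in anterior libraries, against 2379 and 2423 times in central libraries. Its means were 75.4 ± 6.0 and 76.1 ± 1.7 CPM (SD, n = 2 each), or on the log2 scale a difference of -0.01 ± 0.08 (SE, adjusted p = 0.932 by edgeR). The exons of the gene pair overlap over 153 bases on opposite strands, and 3.15% of the 50-base words of Shox2 occur in Rsrc1 transcripts. Whether reads were counted by strand is not given in the sources used here, so the counts in that stretch are uncertain. On the other side Veph1, which lies beyond a gap of 675 kb, had 23 and 16 counts in anterior and 120 and 117 in central libraries (log2 fold change -2.59 ± 0.37 SE, adjusted p = 0.00156 by edgeR).

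**Figure D3:**
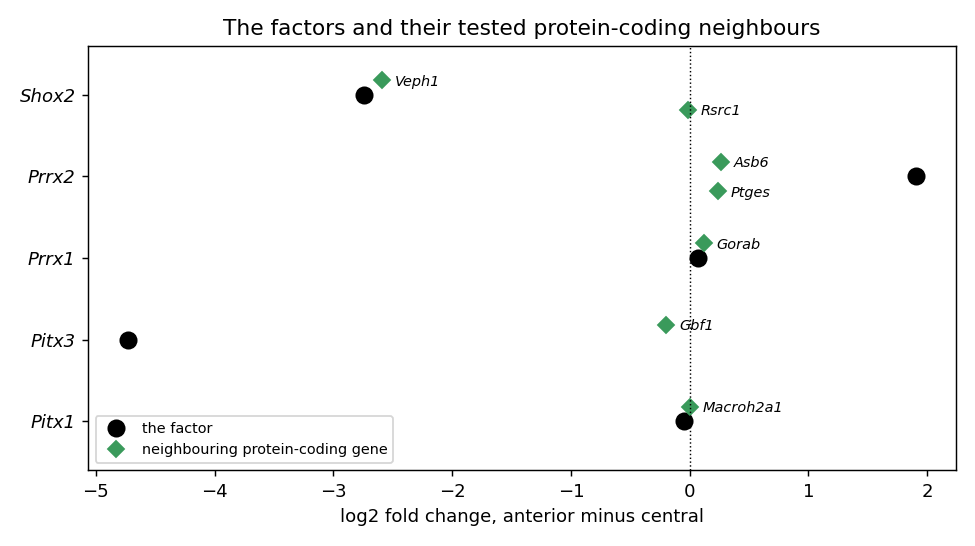
Log2 fold change (anterior minus central) of the 5 factors (black circles) and of the 7 tested protein-coding neighbours (green diamonds). The neighbours lie near 0 except Veph1 at -2.59, and Rsrc1, whose start overlaps that of Shox2, lies at -0.01.

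The sequence before the start of Shox2 is shown because Rsrc1, transcribed the opposite way across this stretch, did not differ beyond its spread, and that of Pitx3 because it is the other factor that was lower in anterior cells. Both come from the RefSeq promoter windows of GRCm38.p6, restricted to bases that no exon of GENCODE M21 covers, and are written 5′ to 3′ on the minus strand. The Shox2 stretch is chr3:66981772-66982021 and lies within an intron of Rsrc1. The Pitx3 stretch is chr19:46148327-46148575. Capitals mark matches on either strand to TAATTA, a core of paired-like binding sites, TAATCC, the core preferred by Pitx factors, or TATAAA.
Shox2: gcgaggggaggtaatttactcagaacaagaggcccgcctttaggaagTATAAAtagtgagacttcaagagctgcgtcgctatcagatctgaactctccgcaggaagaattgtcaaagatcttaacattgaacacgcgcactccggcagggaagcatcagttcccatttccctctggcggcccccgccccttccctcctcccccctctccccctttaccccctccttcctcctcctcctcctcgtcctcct
Pitx3: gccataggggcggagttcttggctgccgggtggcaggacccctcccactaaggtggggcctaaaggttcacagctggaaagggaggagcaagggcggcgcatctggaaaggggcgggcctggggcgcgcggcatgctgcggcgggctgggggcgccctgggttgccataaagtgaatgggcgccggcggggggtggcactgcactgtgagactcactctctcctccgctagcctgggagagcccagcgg

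The Shox2 stretch held 1 match to TATAAA and 11 CG dinucleotides, and the Pitx3 stretch held no match and 16 CG dinucleotides. In the 250-base windows of all 32851 annotated starts, 4.84% held TAATTA, 6.25% TAATCC and 12.4% TATAAA, and the median number of CG dinucleotides was 6. The Prrx1 window, of which 60 bases are exonic in GENCODE M21, held 1 match to TAATTA and 4 CG dinucleotides. The RefSeq window of Prrx2 is wholly covered by GENCODE exons of that gene, so it is not described as sequence before a start. These are matches of letters, not measured binding.

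Among the other paired-like homeobox genes, most had few or no counts. Of 27 listed genes 26 were in the table, 8 were at 0 counts in every library and 8 passed the filter. Of the tested genes, 3 were higher in anterior cells, 2 were lower and 3 were not called, with a median log2 fold change of -0.12 against -0.01 over all genes. The list passed through a filter that keeps genes high in either group, so its count is a description. The shares over all tested genes were 10.7% higher and 12.3% lower.

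Gsc was among the called genes of that list. This gene, a homeobox gene of the gastrula organizer and of head and limb mesenchyme, was counted 64 and 70 times in anterior libraries, against 1656 and 1169 times in central libraries. Its level was 2.15 ± 0.33 against 44.9 ± 12.5 CPM, a log2 fold change of -4.39 ± 0.23 (SE, adjusted p = 5.87e-06 by edgeR), with no overlap. Alx1, an aristaless-like factor, and Dmbx1 were higher in anterior cells, at log2 fold changes of 2.12 and 1.67, from levels below 5 CPM. Alx4 overlapped between the groups, at 29.3 ± 11.8 and 45.3 ± 12.7 CPM (adjusted p-value 0.119).

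**Figure D4:**
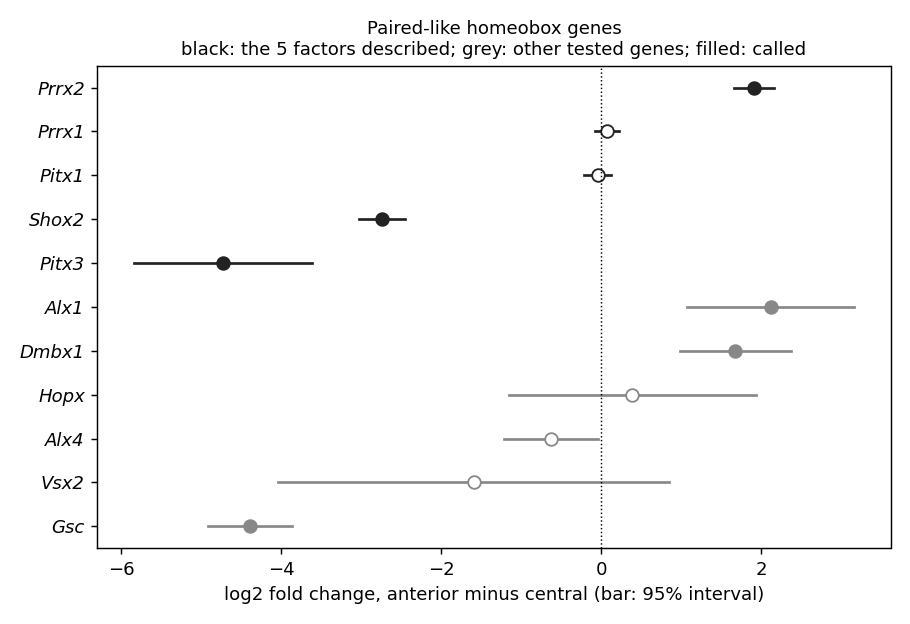
Log2 fold change (anterior minus central) with its 95% interval for the 5 factors (black) and 6 other tested paired-like genes (grey), with filled circles for called genes. Prrx2 lies at 1.91, Shox2 at -2.74 and Pitx3 at -4.73, while the intervals of Prrx1 and Pitx1 include 0.

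The partners of Pitx1 in hindlimb identity were less even than Pitx1 itself. Of 6 genes, 4 were lower in anterior cells, against 12.3% of all tested genes, and 2 were not called (median log2 fold change -1.18). The fixed lists here and below were chosen with earlier results of these data known, so their counts are descriptions. Tbx4, the direct partner, was not called (log2 fold change -0.14, adjusted p = 0.223 by edgeR). Hoxc10 measured 62.1 ± 15.5 against 105 ± 4.3 CPM and Hoxc11 measured 12.3 ± 1.2 against 37.5 ± 7.2 CPM (SD, n = 2). Their log2 fold changes were -0.76 and -1.61, with edgeR adjusted p-values of 0.006 and 0.000137. Isl1, which acts in the hindlimb field before outgrowth, had 152 and 20 counts in anterior and 679 and 765 in central libraries (log2 fold change -3.09, adjusted p = 0.00443 by edgeR).

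Of 10 mesenchymal genes that act with the Prrx factors, 6 were called higher in anterior cells and 2 lower. The shares over all tested genes were 10.7% and 12.3%. The median log2 fold change of the list was 0.67. The muscle segment homeobox genes Msx1 and Msx2 had log2 fold changes of 3.26 and 2.80, and Bmp4, a bone morphogenetic protein gene, one of 1.44 (edgeR adjusted p-values 1.06e-06, 3.72e-06 and 1.18e-05). Twist1 measured 469 ± 15.6 against 265 ± 23.6 CPM (log2 fold change 0.83). Its paralog Twist2 was lower, at 20.0 ± 2.8 against 54.5 ± 1.2 CPM (log2 fold change -1.45), so the Twist paralogs differed in opposite directions. Tnc, the tenascin-C gene, was lower with 5.52 ± 2.07 CPM in anterior and 23.5 ± 12.3 CPM in central cells (-2.08 on the log2 scale, adjusted p = 0.0045 by edgeR).

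Shox2 was low in anterior cells together with several proximal genes. Of 9 proximal genes, 5 were lower, 3 were higher and 1 was not called (median log2 fold change -1.53). The shares over all tested genes were 12.3% lower and 10.7% higher. Meis2, a proximal determinant, was counted 368 and 60 times in anterior libraries, against 3929 and 4230 times in central libraries (log2 fold change -4.27, adjusted p = 0.000329 by edgeR). Meis2, Meis1, Irx3, Irx5 and Isl1 all had more counts in anterior replicate 1 than in anterior replicate 2, as Shox2 did. Of the 4 Hox genes of the same list, 3 were called slightly higher in anterior cells, with Hoxa10 at 395 ± 34.4 against 333 ± 2.3 CPM (0.25 on the log2 scale, adjusted p = 0.0386 by edgeR) and Hoxa9 at a log2 fold change of 0.37.

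Distal genes went the other way, as Prrx2 did. Of 9, 7 were higher in anterior cells and none was lower (median log2 fold change 0.98, against -0.01 over all genes). The shares over all tested genes were 10.7% higher and 12.3% lower. Lhx9 and Lhx2, LIM factors of distal mesenchyme, had log2 fold changes of 2.60 and 2.65, and Hoxd13 and Hoxa13, the autopod Hox genes, of 1.59 and 1.76. Hoxd11 and Hoxa11, genes of the middle segment, were not called, at 0.19 and 0.12.

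In the chondrocyte programme, the process Shox2 is known for, 4 of 10 tested genes were lower in anterior cells and none was higher (median log2 fold change -1.11). The share lower over all tested genes was 12.3%, for this list and for the connective tissue list below. Col2a1, the main cartilage collagen, measured 118 ± 30.8 against 788 ± 158 CPM (log2 fold change -2.73, adjusted p = 2.05e-05 by edgeR). Sox9 had a log2 fold change of -1.27, and Col9a1 one of -1.67. Runx2, reported to act downstream of Shox2, measured 12.1 ± 3.8 and 17.5 ± 6.2 CPM with overlapping groups (adjusted p-value 0.202). Tendon and connective tissue genes were lower for 6 of 7 tested genes (median log2 fold change -3.97). The 6 include Tcf4, an E-protein gene that is not specific to connective tissue (log2 fold change -0.43). Scx, the tendon progenitor factor, measured 10.3 ± 0.37 against 103 ± 1.3 CPM (log2 fold change -3.31, adjusted p = 3.98e-07 by edgeR).

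**Figure D5:**
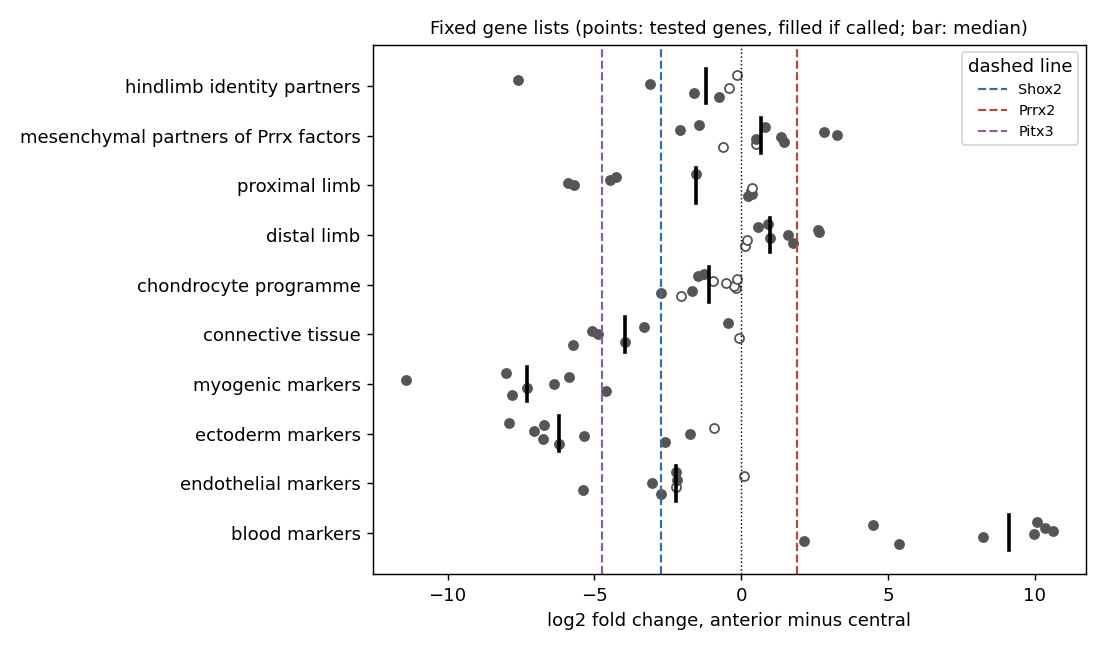
Log2 fold change (anterior minus central) of the tested genes of 10 fixed lists, with filled points for called genes, a bar at each median and dashed lines at the values of Shox2, Prrx2 and Pitx3. The distal median is 0.98 and the proximal median is -1.53, and 3 myogenic genes and 1 gene each of the ectoderm, endothelial and blood lists had at most 3 counts per library in 1 group, so their fitted values are not bounded.

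The genes most like each factor were found as the 3 smallest distances between profiles of log2(CPM + 1), centred per gene, over the 4 libraries among 10604 genes with a mean of at least 5 CPM. For Shox2 these were Plekhg1, Runx1t1 and Limch1, at distances of 0.053, 0.067 and 0.20. Runx1t1, a transcriptional corepressor, measured 10.3 CPM in anterior and 75.5 CPM in central cells. For Prrx2 they were Mtss1, Hey1 and Pmaip1, at distances of 0.13 each. Hey1, a target of Notch signalling, measured 161 CPM in anterior and 42.5 CPM in central cells, with a log2 fold change of 1.92.

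For Pitx3 the closest profiles were those of Rbm24, a muscle RNA-binding protein gene, Ccn4 and Sfrp1, at distances of 0.22 to 0.28. The pseudocount narrows the range of a gene as low as Pitx3, so its matches have smaller fold changes, such as -2.90 for Rbm24. The even profiles of Pitx1 and Prrx1 were matched most closely by Nae1, Trim41 and Rpl18, and by Leo1, Tnks1bp1 and Mapkapk5, all at distances below 0.02. With 4 libraries in 2 groups, likeness of profile mostly reflects the shared difference between groups.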

How the data were processed

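The authors deposited whole-number read counts per gene symbol, not normalized, for 4 libraries. Per the submitters' processing notes, STAR 2.7.9a, HTSeq, DESeq2 3.16 and the build mm10 were used, and the annotation and strand setting are not given in the sources used here. Even numbers made up 72.8% to 75.6% of counts from 1 to 10, so both mates of a pair may have been counted and the depth overstated. Columns were matched to sample titles by domain name and number.

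Tests used edgeR 4.0.16 (R 4.3.3) with filterByExpr, TMM and no covariates, leaving 2 residual degrees of freedom. SE is the absolute log2 fold change divided by the square root of F, and 95% intervals use the moderated degrees of freedom. Exact intervals cover counting error alone, because counts were summed over the libraries of a group. PCR copies were not marked, so even that error may be understated. The script was tested on simulated counts. Alternatives used DESeq2 1.42.0, limma 3.58.1, other scalings, filters and thresholds, gene removal, halved counts and leaving out each library.

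Coordinates and lengths come from GENCODE M21, which holds 24366 of the 25239 symbols and all 5 members, and promoters from RefSeq, which matched 4 members. Macroh2a1 is H2afy in GENCODE and was matched through RefSeq synonyms. The members and the 15 other lists (126 genes) were chosen with earlier results of these data known. Named genes were the members, up to 4 abundant genes per list or, for paired-like genes, those of at least 5 mean CPM, neighbours and the 3 closest profiles. Isl1, Alx1, Dmbx1, Tnc, Twist2, Msx2, Runx2, Meis1, Meis2, Irx3, Irx5, Lhx2, Hoxa13, Hoxa11, Myog and Pax7 fall outside that rule and were named after their values were seen. Some listed genes that met the rule are not reported here.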

Additional observations from a re-analysis of the deposited data

How the results depend on the processing

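The calls of Prrx2, Shox2 and Pitx3, and the absence of a call for Prrx1 and Pitx1, were the same under all 16 alternatives run for each gene. The log2 fold change of Prrx2 ranged from 1.87 to 1.92 over the scalings, tests, filters and gene removals and from 1.75 to 2.09 with 1 library left out. For Shox2 the ranges were -2.78 to -2.74 and -2.97 to -2.54, and for Pitx3 -4.77 to -4.64 and -5.13 to -4.38. Leaving out 1 library gave 0.0336 to 0.122 for Prrx1 and -0.125 to 0.0433 for Pitx1, which changed sign to 0.0433 without central replicate 1. In those fits the lone library of a group is assumed to vary like the others. The number of genes called over the whole table was 3351. It fell to 1690 at a threshold of 0.01 and to 1035 in the test against a 1.5-fold change, and ranged from 2009 (without anterior replicate 2) to 3697 with 1 library left out. The first of these are stricter criteria, and the last rests on fewer samples. Of the other paired-like genes 4 to 7 were called, against 5 in the reported fit. With a replicate block in the fit, the calls numbered 3586, and the log2 fold changes of Prrx2 and Shox2 were 1.91 and -2.76. The replicate differences of the populations correlated across genes at 0.072, so the shared numbers do not show that the libraries are paired. The block changed no call among the 5 genes. A floor of 3 counts, 0.090 to 0.102 CPM, limits what can be said of Pitx3 in anterior cells.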
